A study of Mus musculus with 10 samples.

Results

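The 9 genes described here regulate mitochondrial quality control and biogenesis, and the measurement is DNA methylation around their transcript starts in mouse oocytes arrested at metaphase II (MII), the stage at which they are ovulated. The genes are Pink1, Ppargc1a, Tfam, Nrf1, Polg, Opa1, Mfn1, Mfn2 and Dnm1l. A window belonged to them when its centre lay within 200 bp of a transcript start that the RefSeq annotation used here (GRCm38.p6, which shares its coordinates with mm10) gives for one of these genes. This rule found 19 windows at 9 start regions of 8 genes, among 40537 nuclear windows listed for all 3 pools, and all 19 were listed for all 3. Nrf1 had 7 windows at 2 starts, Mfn2 had 3, Pink1, Polg and Opa1 had 2 each, and Tfam, Mfn1 and Dnm1l had 1 each. Ppargc1a had 0 at its RefSeq starts; Ensembl annotation was not used here. Windows at one start overlap almost wholly and share their calls, so the 19 windows held 14 distinct sets of calls and are described below by start region. The window with the most calls in the shallowest pool stands for its start.

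The groups were 11-month wild-type (WT) females with 3 libraries, 2-month females lacking Tet2 (Tet2KO) with 3 libraries and 2-month WT females with 4 libraries. All were of strain C57BL6/129, and Tet2 encodes a dioxygenase that oxidises 5-methylcytosine. The sources used here do not say how the knockout was made or how animals were pooled. The libraries were made from low input by bisulfite sequencing, in which methylated cytosines resist conversion. A methylated call covers both methylcytosine and hydroxymethylcytosine. The labels give either 10 oocytes or 1 oocyte per library, in different fields, so the number of cells behind a library is uncertain.

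Each group was deposited as a single pooled value per window, so no value has a spread between animals or libraries and no test was made. Intervals are Wilson 95% intervals for levels and Newcombe 95% intervals for differences, and they cover counting error only. The whole tables held 30431118 CpG calls for 11-month WT, 8610762 for Tet2KO and 15046863 for 2-month WT. The median shared window held 245, 79 and 131 calls, and at these depths the limit set by 0 methylated calls, taken as 3 calls of the total, is 1.22%, 3.80% and 2.29%. The oocyte label was checked at imprinted genes, whose maternal copy is methylated during oocyte growth. Of 10 measured genes of that kind, 8 were at 75% or more in every pool, while Inpp5f and Grb10 were under 5% in every pool. Of genes with an imprint from sperm, Rasgrf1 was at 2.33%, 0% and 0% in 11-month WT, Tet2KO and 2-month WT, and Meg3 at 6.67%, 2.22% and 23.4%. All these windows lie at transcript starts, and whether they cover the imprinted regions was not checked. Low values among them therefore cannot decide the oocyte label, and neither can the raised Meg3 value. By the deposited fraction, described below, Meg3 was at 8.56% in 11-month WT, 1.85% in Tet2KO and 37.6% in 2-month WT. Pink1 was also high in the 2-month WT pool alone, as given below. The cause of the raised Meg3 value was not tested.

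Mitochondria of the embryo come from the oocyte, whose store of mitochondria and mitochondrial DNA is built up during growth. PGC-1alpha (Ppargc1a) coactivates nuclear respiratory factor 1 (Nrf1), which drives genes of respiration and of mitochondrial DNA upkeep, among them Tfam. Fusion by mitofusins and Opa1 and fission by Drp1 (Dnm1l) shape the organelle, and Pink1 marks damaged mitochondria for removal by mitophagy. Promoters with many CpG dinucleotides are unmethylated in most cell types, and methylation there goes with silencing. Transcription was not measured here.

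The starts differ widely in CpG content, counted here in 300 bases and not over the whole window of 2000 bp. The RefSeq table holds 13 promoters of the 9 genes, each 300 bases long, with 250 before the start and 50 after it. They carried 2 to 43 CpGs with a median of 21, against a median of 7 over 32851 promoters of that length. The Pink1 promoter is shown because its level differed most between the pools. Both Nrf1 promoters are shown because one gene has a CpG-rich and a CpG-poor start. The Ppargc1a promoter is shown because no window lay at it, and the Opa1 promoter because it holds a half-site of the Nrf1 protein. Sequences run 5′ to 3′ on the gene's strand, and capitals mark CpG dinucleotides.
Pink1, chr4:138326247-138326546, minus strand, 18 CpGs: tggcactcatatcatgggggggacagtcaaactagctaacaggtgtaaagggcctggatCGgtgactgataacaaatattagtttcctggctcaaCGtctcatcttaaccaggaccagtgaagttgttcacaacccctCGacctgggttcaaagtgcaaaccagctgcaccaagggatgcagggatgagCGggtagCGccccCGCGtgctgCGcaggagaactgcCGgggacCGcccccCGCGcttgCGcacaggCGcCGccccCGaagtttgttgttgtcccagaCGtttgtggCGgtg
Nrf1 first start, chr6:30047738-30048037, plus strand, 43 CpGs: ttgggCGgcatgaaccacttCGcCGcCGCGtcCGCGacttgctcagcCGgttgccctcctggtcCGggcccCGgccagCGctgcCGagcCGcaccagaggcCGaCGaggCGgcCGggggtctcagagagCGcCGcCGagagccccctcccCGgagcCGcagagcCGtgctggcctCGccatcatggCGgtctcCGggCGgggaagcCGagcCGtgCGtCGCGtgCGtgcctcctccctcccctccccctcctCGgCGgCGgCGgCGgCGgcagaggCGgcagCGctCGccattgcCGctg
Nrf1 second start, chr6:30076071-30076370, plus strand, 2 CpGs: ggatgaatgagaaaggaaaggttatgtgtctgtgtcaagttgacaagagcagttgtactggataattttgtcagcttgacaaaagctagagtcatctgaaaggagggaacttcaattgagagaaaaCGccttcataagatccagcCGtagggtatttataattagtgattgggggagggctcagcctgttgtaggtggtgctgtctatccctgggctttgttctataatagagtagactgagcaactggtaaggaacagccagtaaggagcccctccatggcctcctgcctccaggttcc
Ppargc1a, chr5:51567676-51567975, minus strand, 5 CpGs: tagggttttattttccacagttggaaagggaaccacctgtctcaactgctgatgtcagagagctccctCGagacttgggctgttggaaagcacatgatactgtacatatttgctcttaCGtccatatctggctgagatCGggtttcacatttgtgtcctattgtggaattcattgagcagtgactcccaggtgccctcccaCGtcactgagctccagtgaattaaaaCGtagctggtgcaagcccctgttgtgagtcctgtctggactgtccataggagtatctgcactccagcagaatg
Opa1, chr16:29579084-29579383, plus strand, 18 CpGs: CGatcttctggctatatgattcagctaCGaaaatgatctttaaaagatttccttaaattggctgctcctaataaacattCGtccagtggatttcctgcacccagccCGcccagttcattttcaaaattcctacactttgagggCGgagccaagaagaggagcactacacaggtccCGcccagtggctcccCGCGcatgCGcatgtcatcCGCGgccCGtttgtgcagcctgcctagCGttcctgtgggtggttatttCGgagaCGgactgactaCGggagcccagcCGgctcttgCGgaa

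Motifs were searched in the same 13 promoters on both strands. The half-site GCGCATG of the Nrf1 protein was found in the Opa1 promoter alone, 1 of 13, against 3.91% of all 32851 promoters. The GABPA core CCGGAAG, bound by the factor also called NRF-2, was found in 4 of 13, those of Tfam, Polg and Mfn1 and 1 of the 2 listed for Dnm1l, against 8.86% of all. The SP1 box GGGCGG was in 9 of 13, against 35.7% of all. The full cAMP response element TGACGTCA and the ERR element TCAAGGTCA were each in 0 of 13, against 1.79% and 0.423%. The CREB half-site TGACG, which is part of the full element, was in 6 of 13, among them Ppargc1a and the 3 Mfn2 promoters, against 20.8%. The 3 Mfn2 promoters overlap and share a match, so they are not separate observations. All of these motifs but the ERR element contain a CpG, and the 13 promoters held a median of 21 CpGs against 7 over all. The shares over all promoters were not matched for CpG content, so they do not show a motif trait of these genes. These matches describe letters only and do not show binding.

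Of the 9 start regions, 8 were low in every pool, and that of Pink1 stood apart in 2-month WT. Leaving out Pink1, levels reached at most 11.9% in 11-month WT, 8.33% in Tet2KO and 9.07% in 2-month WT. Under 5% lay 8 of the 9 starts in 11-month WT, 7 in Tet2KO and 7 in 2-month WT, against 64.2%, 65.2% and 58.9% of all shared windows. The pool with the highest level was 11-month WT at 3 starts, Tet2KO at 3 and 2-month WT at 2, and the second Nrf1 start was at 0% in all 3.

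**Figure D1:**
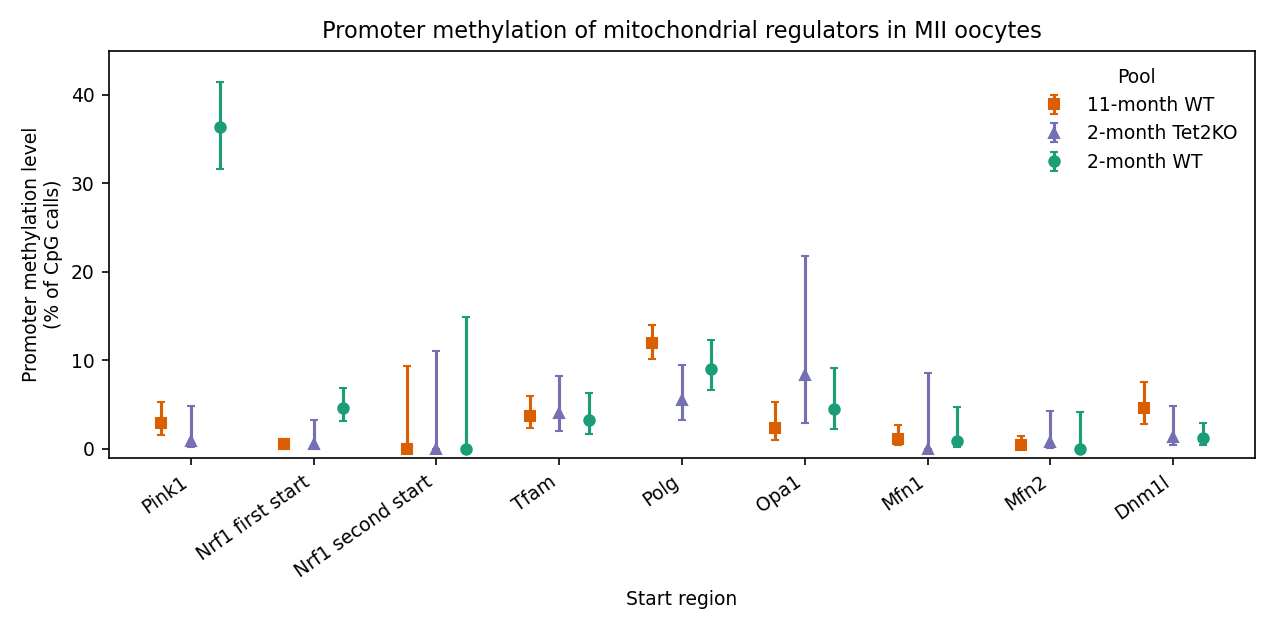
Promoter methylation level, as percent of CpG calls, at the 9 start regions in the 11-month WT, 2-month Tet2KO and 2-month WT pools. Points are pooled values and bars are Wilson 95% intervals of counting error; only the 2-month WT value of Pink1, at 36.4%, lies above 15%.

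Pink1 encodes the kinase that accumulates on damaged mitochondria and recruits the ubiquitin ligase Parkin. Its window (chr4:138325308-138327307, mm10) held 10 methylated of 342 calls in 11-month WT, 1 of 114 in Tet2KO and 134 of 368 in 2-month WT. The levels were 2.92% (1.60 to 5.30), 0.877% (0.155 to 4.80) and 36.4% (31.7 to 41.4) in that order. The interval of 2-month WT did not overlap those of the other pools, which overlapped each other. The difference was -33.5 points with age (-38.7 to -28.2) and -35.5 points with Tet2 loss (-40.6 to -29.4). Both comparisons use the same 2-month WT pool, so they are not separate observations of that high value.

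Both Pink1 windows were lower by 20 points or more in each comparison, which makes 2 of the 19 windows and 1 of the 9 starts. Over all 40537 shared windows 2.76% were that much lower with age and 3.22% with Tet2 loss, and over the windows with 50 or more covered CpG positions 1.86% and 2.05% were. A further Pink1 window lay 207 bp from the start, just outside the limit of 200 bp, and had the same calls as the Pink1 window at 56 bp, with levels of 2.68%, 0.877% and 36.4%. The farthest window inside the limit was a Polg window at 135 bp, with levels of 11.4%, 5.12% and 8.25% in 11-month WT, Tet2KO and 2-month WT.

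The deposited fraction of Pink1, taken to give each covered position equal weight, was 2.90%, 1.56% and 36.2% in 11-month WT, Tet2KO and 2-month WT, from 92, 64 and 73 covered positions. How the methylated calls were distributed over these positions was not analysed here. The window was also deep in 2-month WT. It held 3.72 calls per covered position in 11-month WT, 1.78 in Tet2KO and 5.04 in 2-month WT, where the medians of all shared windows were 4.24, 2.04 and 2.80. The ratio of 2-month WT to 11-month WT calls was 1.08 at Pink1 and 0.551 at the median window, and 9.78% of windows had a ratio as high or higher. Dnm1l had a ratio of 1.13, and its level in 2-month WT was 1.17%. The part of depth in the Pink1 difference was not tested.

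The other genes with a named window within 50 kb of the Pink1 start, Ddost and Cda, differed by less than Pink1. Ddost, a subunit of oligosaccharyltransferase whose start lies 21567 bp downstream, was at 2.35% (468 calls) in 11-month WT, 0% (105 calls) in Tet2KO and 8.63% (197 calls) in 2-month WT. Cda, cytidine deaminase, 41696 bp upstream, was at 35.5%, 70.4% and 50%, from 211, 108 and 74 calls. Its difference was -14.5 points with age and 20.4 points with Tet2 loss, the latter opposite to Pink1 and past 20 points. Among windows of other genes with at least 50 calls in every pool, those of 9588 symbols, the closest to the 3 Pink1 levels were at Igfbp4, H3f3b, H2-K1, Mtarc2 and Bap1. Their distances were 1.37 to 2.09 points, taken as the Euclidean distance over the 3 pools. Igfbp4, an insulin-like growth factor binding protein, was at 1.56%, 0.763% and 36.4% in 11-month WT, Tet2KO and 2-month WT. Mtarc2, a mitochondrial amidoxime reducing enzyme, was at 1.33%, 0% and 35.4%. At Bap1, a histone deubiquitinase, the call share in 2-month WT was 37.6% and the deposited fraction 21.2%. These windows were chosen for their likeness, so their levels are no independent support.

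Among the regulators of biogenesis, Nrf1 differed by a few points and Tfam by less. The first Nrf1 start (chr6:30046988-30048987) held 9 methylated of 1547 calls in 11-month WT, 1 of 170 in Tet2KO and 23 of 494 in 2-month WT. Its levels were 0.582% (0.306 to 1.10), 0.588% (0.104 to 3.26) and 4.66% (3.12 to 6.89). The 11-month and 2-month WT intervals did not overlap, while that of Tet2KO overlapped both. The difference was -4.07 points with age (-6.32 to -2.45) and -4.07 points with Tet2 loss (-6.35 to -0.990). The deposited fraction gave smaller differences, of -2.93 and -3.28 points.

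The second Nrf1 start (chr6:30075321-30077320), 28335 bp into the gene, carried no methylated call. It held 37 calls in 11-month WT, 31 in Tet2KO and 22 in 2-month WT, which allow levels of up to 8.11%, 9.68% and 13.6% by the limit of 3 calls, with upper Wilson bounds of 9.41%, 11.0% and 14.9%. CpG-rich and CpG-poor starts of the gene were thus both low at this depth. The Tfam window (chr10:71237281-71239280), at the gene of the factor that packages mitochondrial DNA and starts its transcription, was at 3.73% (429 calls) in 11-month WT, 4.09% (171 calls) in Tet2KO and 3.24% (247 calls) in 2-month WT. Its intervals overlapped, and the differences were 0.49 points with age (-2.85 to 3.24) and 0.85 points with Tet2 loss (-2.82 to 5.26).

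Polg encodes the catalytic subunit of the polymerase that copies mitochondrial DNA, and its start (chr7:79465363-79467362) was the most methylated of the 9 in 11-month WT. It held 133 methylated of 1115 calls in 11-month WT, 12 of 216 in Tet2KO and 36 of 397 in 2-month WT. The levels were 11.9% (10.2 to 14.0), 5.56% (3.21 to 9.46) and 9.07% (6.62 to 12.3). The interval of Tet2KO lay below that of 11-month WT, and that of 2-month WT overlapped both. The differences from 2-month WT were 2.86 points at 11 months (-0.825 to 6.04) and -3.51 points in Tet2KO (-7.51 to 1.09). Tet2KO minus 11-month WT, a comparison across both age and genotype, was -6.37 points (-9.48 to -2.09). By the deposited fraction Polg was at 10.7%, 8.73% and 11.4%, so the age difference had the other sign, at -0.758 points.

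The genes of mitochondrial shape were low in all pools. Opa1, which fuses inner membranes and holds cristae closed, was at 2.31% (216 calls) in 11-month WT, 8.33% (36 calls) in Tet2KO and 4.55% (154 calls) in 2-month WT. Its Tet2KO value came from 3 methylated calls, and its interval reached from 2.87 to 21.8, and the difference from 2-month WT was 3.79 points (-3.31 to 17.5). Mfn1, an outer membrane fusion protein, was at 1.07% of 375 calls, 0% of 41 and 0.870% of 115. Mfn2, its relative that also tethers mitochondria to the endoplasmic reticulum, was at 0.391% of 511 calls, 0.787% of 127 and 0% of 89. By the limit of 3 calls, the counts of 0 allow up to 7.32% at Mfn1 in Tet2KO and 3.37% at Mfn2 in 2-month WT, with upper Wilson bounds of 8.57% and 4.14%.

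Dnm1l encodes the GTPase Drp1, which constricts mitochondria for fission. Its start (chr16:16358031-16360030) held 14 methylated of 303 calls in 11-month WT, 2 of 145 in Tet2KO and 4 of 342 in 2-month WT. The levels were 4.62% (2.77 to 7.61), 1.38% (0.379 to 4.89) and 1.17% (0.456 to 2.97). The intervals of all pools overlapped one another. The age difference was 3.45 points (0.872 to 6.52), and the deposited fraction gave 0.875 points. With Tet2 loss the difference was 0.21 points (-1.85 to 3.79).

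**Figure D2:**
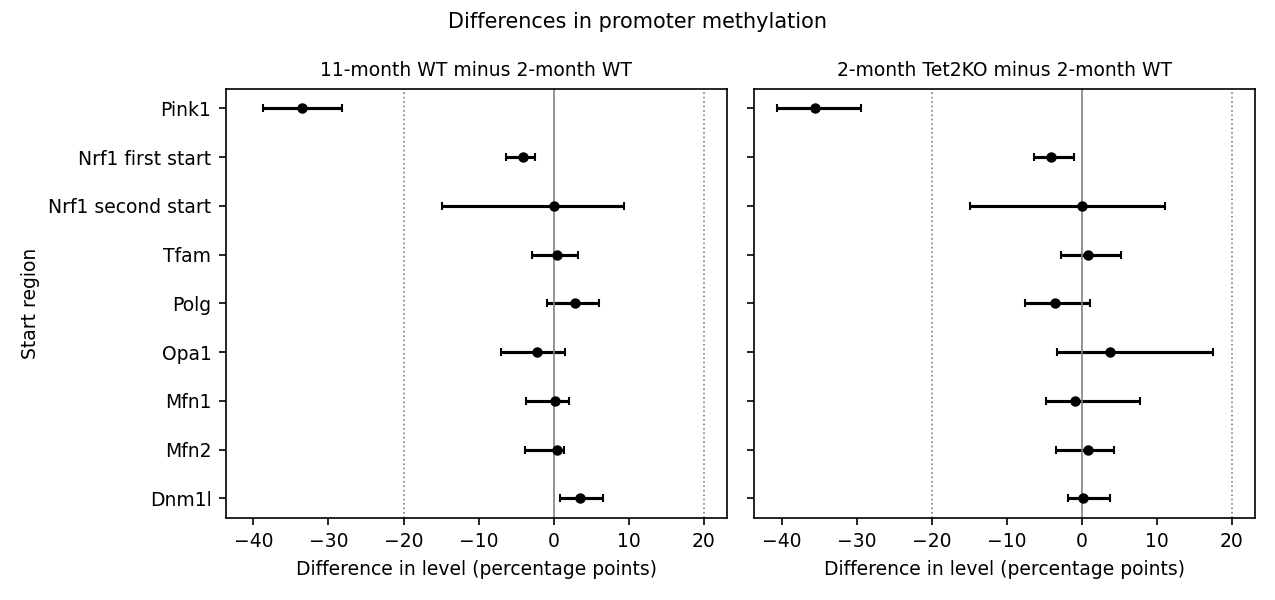
Difference in level, in percentage points, at the 9 start regions for 11-month WT minus 2-month WT and for 2-month Tet2KO minus 2-month WT, with Newcombe 95% intervals of counting error. Dotted lines mark 20 points; Pink1 lies beyond the lower line in both panels, at -33.5 and -35.5, and no other start passes either line.

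Without Pink1 the 8 other starts differed by -4.07 to 3.45 points with age and by -4.07 to 3.79 points with Tet2 loss. With age 5 of the 8 were higher, 2 lower and 1 equal, and with Tet2 loss 4 were higher, 3 lower and 1 equal. The interval left out 0 above it at 1 start with age, that of Dnm1l, and below it at 1 start in each comparison, that of Nrf1. No start was higher by 20 points or more, against 2.78% of all windows with age and 3.29% with Tet2 loss. The median difference over the 9 starts was 0.20 points with age and 0 with Tet2 loss, where all shared windows had medians of 0 and -0.241. Over the 19 windows the medians were -2.23 and -3.13 points. The 6 windows at the first Nrf1 start weigh on those values.

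Further windows were centred inside the genes but overlapped none of the windows at the starts. The tables give only an Ensembl transcript identifier for them, and the annotation used here holds RefSeq starts only. A window may therefore lie at a further start of the gene itself, which would place it among the start windows, or belong to another transcript within the gene. There were 17 such windows in 4 genes, 11 of them in Ppargc1a. As background, oocytes acquire most of their methylation across transcribed gene bodies during growth.

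Inside Pink1, Nrf1 and Mfn1 the levels were high in every pool. The 2 Pink1 windows, which overlap and lie 10096 and 9870 bp downstream of the start, were at 81.8% and 85.7% in 11-month WT, 53.3% and 58.8% in Tet2KO, and 90.9% and 91.7% in 2-month WT. The Tet2KO values came from 15 and 17 calls, and the difference at the window farther downstream was -37.6 points (-61.4 to -12.6). With age it was -9.09 points (-22.4 to 5.38). By the deposited fraction these differences were -25.6 and -27.9 points. The 3 Nrf1 windows were at 90% to 94.2% in 11-month WT, 100% in Tet2KO and 77.3% to 94.8% in 2-month WT. Those 41903 and 41909 bp downstream of the start hold the same calls, 30 in 11-month WT, 15 in Tet2KO and 22 in 2-month WT. The Mfn1 window, 2110 bp downstream of the start, was at 80.8% of 52 calls, 82.1% of 28 and 61.3% of 31. Its differences of 19.5 points with age (-0.137 to 38.9) and 20.9 points with Tet2 loss (-2.36 to 41.0) had intervals that reached 0.

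Inside Ppargc1a most levels were low, in windows 13803 to 257078 bp from the nearest RefSeq start. Of the 11 windows, all were listed for 11-month WT, 6 for Tet2KO and 7 for 2-month WT. Levels lay between 0% and 36.4% in 11-month WT, 0% and 15.4% in Tet2KO, and 0% and 11.1% in 2-month WT, with medians of 5.26%, 0% and 4.55%. No methylated call was seen in 5, 4 and 3 of the listed windows. Among these, the windows 13834 and 13803 bp from the nearest RefSeq start overlap and hold the same calls. They have 38 calls in 11-month WT, 10 in Tet2KO and 21 in 2-month WT. These windows covered 5 to 17 CpG positions and 10 to 56 calls in 11-month WT, so single calls move them by several points. The highest 11-month value, 36.4%, came from 4 of 11 calls, against 0 of 17 in 2-month WT, with an interval of the difference from 8.27 to 64.6 points. A window at 30%, from 3 of 10 calls, was listed for 11-month WT only. A further window was at 33.3% (15 calls) in 11-month WT, 15.4% (13 calls) in Tet2KO and 4.55% (22 calls) in 2-month WT, higher by 28.8 points with age (3.74 to 54.0), or by 10.3 points in the deposited fraction. The only window listed in all pools with 50 or more calls in 11-month WT was at 12.5% of 56 calls there, 0% of 24 in Tet2KO and 8.93% of 56 in 2-month WT. Outside the gene, 1458 bp upstream of its 5′ end, a window held no methylated call. It had 64 calls in 11-month WT, 31 in Tet2KO and 65 in 2-month WT.

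**Figure D3:**
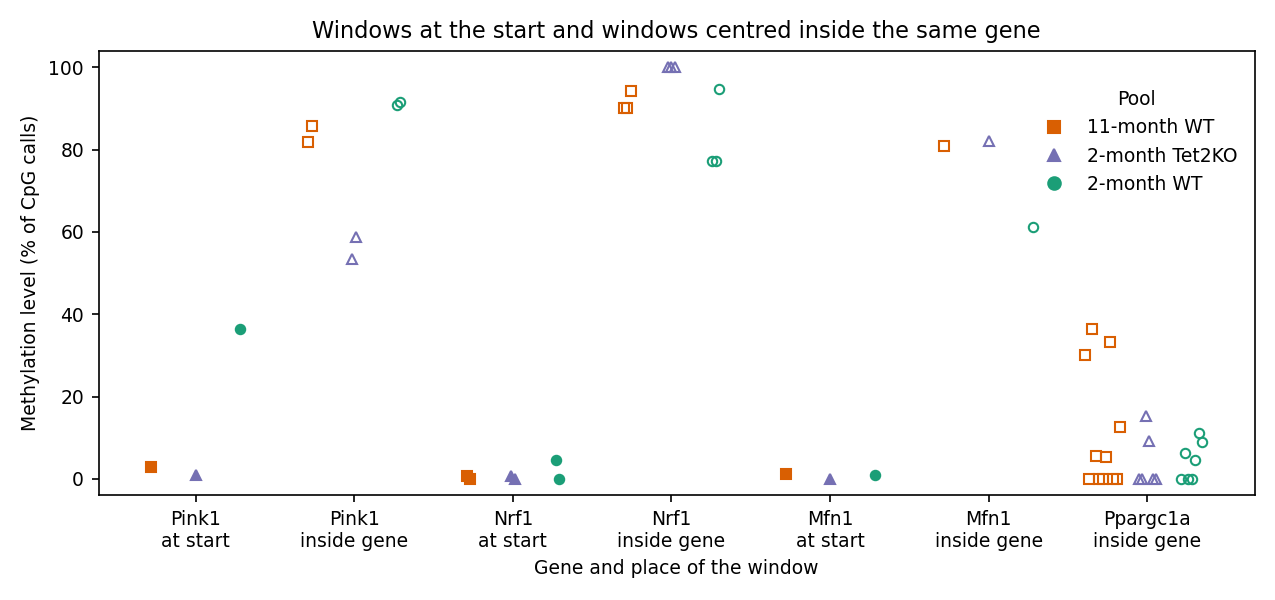
Methylation level, as percent of CpG calls, of windows at the start (filled) and windows centred inside the gene (open) for Pink1, Nrf1, Mfn1 and Ppargc1a in the 3 pools; each point is the pooled value of 1 window. Windows inside Pink1, Nrf1 and Mfn1 lie at 53.3% or above and those inside Ppargc1a at 36.4% or below, and Ppargc1a has no window at a RefSeq start.

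Other genes of mitochondrial upkeep were taken from 5 lists of 106 genes, of which 83 had a named window in all pools. At 1 window per gene, 1 of 83 was higher by 20 points or more with age and 2 were lower, and with Tet2 loss 1 was higher and 2 were lower. These counts are 1.20% and 2.41% of the 83 genes. Of all windows 2.78% were higher and 2.76% lower with age, and 3.29% were higher and 3.22% lower with Tet2 loss. Those shares include windows without a gene symbol and are not at 1 window per gene. With age 38 were higher and 45 lower, with a median difference of -0.22 points, and with Tet2 loss 26 were higher and 57 lower, with a median of -1.48. Over all windows 48.2% were higher and 47.7% lower with age, and 38.6% were higher and 52.6% lower with Tet2 loss.

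In the mitophagy list, with 16 of 21 genes measured, Gabarapl1 was, like Pink1, 20 points or more below 2-month WT in both comparisons. This relative of LC3, which binds autophagosome membranes, was at 1.81% (276 calls) in 11-month WT, 1.57% (127 calls) in Tet2KO and 23.6% (123 calls) in 2-month WT. Its differences were -21.8 points with age (-30.1 to -14.7) and -22.0 points with Tet2 loss (-30.3 to -14.3). By the deposited fraction they were -17.6 and -19.7 points. Fundc1, a mitophagy receptor of the outer membrane, was at 39.4% of 66 calls, 20.7% of 29 and 17.5% of 57, higher by 21.9 points with age (5.78 to 36.2). The deposited fraction gave 18.3 points for Fundc1, so Gabarapl1 and Fundc1 both lie near the limit of 20 points. Other genes of the list were also highest in 2-month WT. Sqstm1 was at 3.17% (410 calls) in 11-month WT, 4.00% (225 calls) in Tet2KO and 18.8% (245 calls) in 2-month WT. Its differences were -15.6 points with age (-21.1 to -10.7) and -14.8 points with Tet2 loss (-20.5 to -9.20). With age 8 genes of the list were higher and 8 lower, and with Tet2 loss 5 were higher and 11 lower. The list's medians were -0.32 points with age and -1.18 with Tet2 loss.

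In the list of mitochondrial DNA maintenance and expression, with 17 of 22 genes measured, 3 genes had a window 20 points or more apart. Dna2, a nuclease and helicase of nuclear and mitochondrial DNA, was at 8.68% (403 calls) in 11-month WT, 33.0% (97 calls) in Tet2KO and 7.31% (301 calls) in 2-month WT. It was higher by 25.7 points with Tet2 loss (16.4 to 35.8), and by 15.6 points in the deposited fraction. Mterf1a, a mitochondrial transcription termination factor, was at 1.28% of 78 calls, 6.67% of 15 and 30.8% of 13, the last from 4 methylated calls. Its differences were -29.5 points with age (-56.4 to -10.5) and -24.1 points with Tet2 loss (-51.5 to 5.28), the latter with an interval that includes 0. Mterf4, which acts in mitochondrial ribosome assembly, had 2 windows with 11 and 15 Tet2KO calls that were higher with Tet2 loss. The differences were 41.1 points (7.83 to 62.7) and 22.6 points (-5.44 to 47.6), the latter with an interval that includes 0. Its window of most calls differed by 3.57 points. The list's medians were -1.03 points with age and -1.75 with Tet2 loss.

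The remaining lists had no window 20 points apart by the share of calls. Among biogenesis regulators, with 18 of 20 genes measured, Ppard, a lipid-sensing nuclear receptor, was farthest apart. It was at 1.06% (282 calls) in 11-month WT, 0% (78 calls) in Tet2KO and 19.8% (172 calls) in 2-month WT, with differences of -18.7 points with age and -19.8 points with Tet2 loss. By the deposited fraction, 36.1% in 2-month WT, they were -34.9 and -36.1 points, past the limit. Fis1, an outer membrane protein linked to fission, at -9.78 points with age, and Rhot1, which links mitochondria to motor proteins, at -9.83 points with Tet2 loss, led the fusion and fission list of 17 measured genes. Atf4, a transcription factor of the stress response, at -9.30 points with age, and the matrix protease Lonp1, at -8.82 points with Tet2 loss, led the protease and chaperone list of 15 measured genes. The median differences of these 3 lists were 0.12, -0.60 and -0.22 points with age and -0.39, -1.86 and -2.44 points with Tet2 loss.

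**Figure D4:**
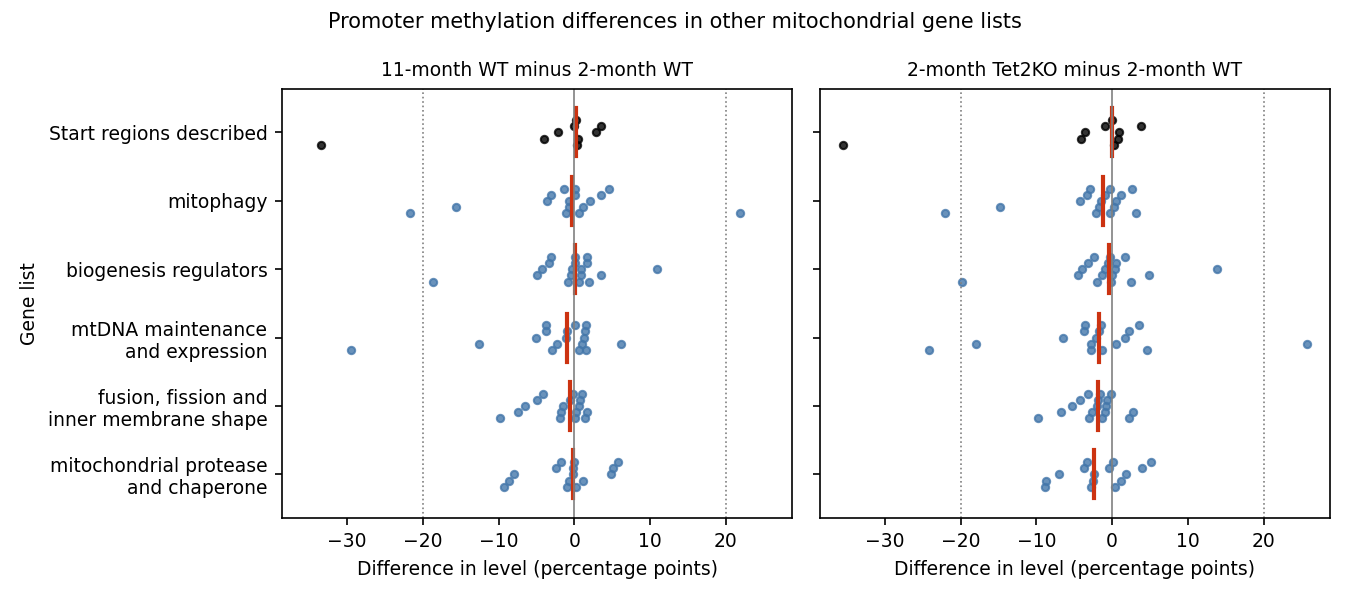
Difference in promoter methylation level, in percentage points, for 11-month WT minus 2-month WT and 2-month Tet2KO minus 2-month WT at the start regions described and at 5 further lists of mitochondrial genes. Each point is 1 start region or 1 gene, red bars are medians, and dotted lines mark 20 points, past which lie Pink1 among the start regions and 3 genes of the lists in each panel.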

How the data were processed

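Per the labels, MII oocyte libraries were made by low-input bisulfite sequencing, and the submitters' processing notes name Trimmomatic, Bismark (version field 12.5) and mm10 without roles or order. The authors deposited 3 tables, 1 per group, with pooled values per window of 2000 bp. Methylated CpG calls were deposited as whole-number counts, and the deposited coverage is the number of all CpG calls. A further column gives the covered CpG positions. The deposited fraction was taken as the mean over positions of the methylated share. Where each position had 1 call it equalled the share of calls (660 windows, within 0.1 points in 100%). In such windows both measures are the same by construction, so this does not show how positions were weighted in deeper windows. The 3 columns of unmethylated calls were not used. The 2-month WT table ends within a line, late on the X chromosome, where none of the 9 genes lies.

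Levels were 100 times methylated calls over all calls (Python 3.11.15, pandas 2.3.3). Transcript starts came from the RefSeq promoter table and the 5′ gene end. No spread between libraries was available, so the design's branch without a test applied; the interval code was tested on simulated data. A difference of 20 points or more was counted beside its share over all windows. The 9 genes, the 5 lists and the naming rule (every window of the 9 genes; in each list, genes with a window 20 points apart, or else the gene farthest apart; 5 windows most like Pink1, without predicted genes, microRNAs and receptor families) were chosen with earlier results of these data known. The exclusion of predicted genes was added afterwards.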

Additional observations from a re-analysis of the deposited data

How the results depend on the processing

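The median age difference over the 19 windows, -2.23 points, was -1.71 by the deposited fraction, -2.24 with at least 50 calls in both pools, 0.294 with 1 window per gene, 0 with a match within 50 bp and -2.23 within 500 bp. The median Tet2KO difference, -3.13 points, was -2.69, -4.03, -0.330, 0.210 and -3.13 in that order. All lay within the counting interval of the window at the median, which covers counting error of 1 window and not the uncertainty of a median over windows. The age median changed sign with 1 window per gene, and the Tet2KO median with a match within 50 bp. The count of windows lower by 20 points or more was 2 in each comparison. It was 1 in each with 1 window per gene and 1 in each with a match within 50 bp, because each of these settings keeps 1 of the 2 Pink1 windows. Within 500 bp, a limit chosen after seeing the data, it was 3. By the deposited fraction, with at least 50 calls, at 10 points or more, and with intervals that leave out 0, it was 2. No window was higher by 20 points or more under any of these settings. No paired analysis was possible because each group is a single pooled value, and leaving out a replicate was not possible for the same reason. The Tet2KO pool is the shallowest, and levels at Opa1, Mfn1 and the second Nrf1 start, with 36, 41 and 31 calls there, are the least certain.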
